A study of Mus musculus with 63 samples.

Results

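The 2 genes described are Chd2 and Chaserr, the long noncoding RNA gene listed in the deposited tables as 1810026B05Rik, and they are 2 of 24990 gene rows per library. Both rows were read by gene identifier in every table of RNA levels, across wild-type (WT) mouse tissues and cells and across the genotypes of the study. The sources of RNA were entire embryos at the embryonic stages E9.5 and E13.5 (named by the day of development), adult brain, mouse embryonic fibroblasts (mEFs) and Neuro2a cells, a mouse neuroblastoma line. In embryos, brain and mEFs, 3 Chaserr+/- libraries stood beside 3 WT libraries. Separate mEF sets held 3 Chaserr-/-, 2 Chd2m/m and 3 Chaserr-/- Chd2m/m libraries, each set with 3 WT libraries of its own. The titles of the Chaserr-/- Chd2m/m libraries name a Chd2+/m cross, whereas those of the WT libraries set beside them name a Chaserr+/- Chd2+/m cross. Both groups have the short fragments described below, and the fold changes of that mutant rest on this choice of WT libraries. The Chaserr mutation is a deletion of the promoter and first exon, kept, in animals without a Chd2 mutation, as 2 founder lines that were used without distinction, and Chd2m is a deletion of 2 bases in exon 3 that shifts the reading frame. The mEFs were primary cultures from E13.5 embryos without head and liver, so they hold several cell types. The labels give C57black6 Ola HSD males as the purchased mice and do not give the background of each litter, and no label states the age of the brains beyond adult. For Neuro2a cells there were 2 libraries each of input RNA, of RNA immunoprecipitated with a CHD2 antibody and of RNA pulled down with control IgG.

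CHD2 is a chromatin remodeller of the chromodomain helicase family, an enzyme that uses ATP to move and evict nucleosomes, and it has been linked to placement of the histone variant H3.3 at active genes. Loss of a single copy of the human gene causes a neurodevelopmental disorder with epilepsy, so the amount of CHD2 matters in the brain. Chaserr is transcribed upstream of Chd2 and from the same strand, as a spliced and polyadenylated RNA with no known protein product. The comparisons below ask how much of each RNA the tissues hold, whether their ratio is fixed, and how Chd2 RNA stands when 1 or both Chaserr alleles are lost.

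Both genes lie on the minus strand of chromosome 7, and positions are given on NCBIM37, the assembly also called mm9. The Chaserr start, taken from its RefSeq promoter sequence, is at chr7:80703281-80703281, and the Chd2 transcript runs over chr7:80571577-80686632, so transcription of Chaserr starts 16649 bases upstream of that of Chd2. The 3′ primer that the study used to clone the Chaserr RNA matches chr7:80688718-80688738, which is 2085 bases before the Chd2 start. The Chaserr deletion was made with pairs from 4 guides, shown because they define that allele. The line with both mutations was made separately, on Chd2m/m animals and with guides 2 and 3 alone. They are printed 5′ to 3′ with the adjacent motif that Cas9 needs in capitals, and the Chd2 guide is the one that made the Chd2m allele.
guide 1: cggtccgagccagcggggagAGG
guide 2: gaggtgggaacccatctttgGGG
guide 3: agtgaaactctgggtttgcgGGG
guide 4: tgctgagaacatggaagcggTGG
Chd2 guide: agctatccgttccttcttagAGG

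Guide 1 matches chr7:80702699-80702718 and guide 2 chr7:80702568-80702587, both downstream of the Chaserr start. Guide 3 matches chr7:80703696-80703715 and guide 4 chr7:80703600-80703619, both upstream of it. The Chd2 guide matches chr7:80664375-80664394 in exon 3 of Chd2, which spans chr7:80664363-80664594. Between their predicted cut sites, a guide upstream and a guide downstream enclose from 901 to 1142 bases, and each of the 4 possible pairs takes out the Chaserr start with at least 321 bases before it.

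The 250 bases before each start are shown because the Chaserr stretch lies inside the deletion, whereas the Chd2 stretch stays in place. The Chaserr stretch overlaps the accessible site described below, which extends further upstream. Its summit in WT libraries lay at between -273 and -115 bases from the start (negative is upstream). The Chaserr promoter, chr7:80703282-80703531, is the RefSeq sequence (GRCm38.p6), which reads the same on NCBIM37, and the Chd2 promoter, chr7:80686633-80686882, was read from NCBIM37. Both are on the minus strand, and capitals mark CCAAT.
Chaserr promoter: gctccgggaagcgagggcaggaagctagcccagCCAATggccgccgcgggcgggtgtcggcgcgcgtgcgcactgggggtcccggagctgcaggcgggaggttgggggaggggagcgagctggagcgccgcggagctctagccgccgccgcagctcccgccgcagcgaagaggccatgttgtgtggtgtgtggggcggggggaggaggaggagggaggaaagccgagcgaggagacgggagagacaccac
Chd2 promoter: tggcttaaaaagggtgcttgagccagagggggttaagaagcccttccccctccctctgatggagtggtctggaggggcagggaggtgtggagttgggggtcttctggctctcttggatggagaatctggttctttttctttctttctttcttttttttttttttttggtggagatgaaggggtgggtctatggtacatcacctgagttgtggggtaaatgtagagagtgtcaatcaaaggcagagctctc

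Of the bases in the Chaserr promoter 73.6% are G or C, against 48.8% in the Chd2 promoter and a median of 52.4% over 32851 RefSeq promoters of the same length. The ratio of observed to expected CG pairs is 0.88 at Chaserr, and the Chd2 stretch holds no CG pair. Searched on both strands, GGGCGG occurs 2 times and CCAAT 1 time at Chaserr and neither occurs at Chd2, while TATAAA is absent from both windows. GGGCGG is in 32.7% of all promoters, CCAAT in 33.8% and TATAAA in 12.4%.

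Libraries held between 7621335 and 33192002 counts in all. Levels are in TPM, transcript shares that are scaled by length and so allow a comparison between genes, and the deposited row length is 9071 bases for Chd2 and 873 for Chaserr. At these depths a WT library outside Neuro2a gave between 41 and 671 counts for Chaserr. The library kits were TruSeq for the embryos and, in brain, for replicate 3 of either genotype, SENSE for the other brains and all mEFs, and RiboCop depletion of ribosomal RNA for Neuro2a. The labelled sources carried their markers. Summed over 6 neuronal genes, WT brain had from 3287 to 4182 TPM and mEFs at most 28.5 TPM. The 6 fibroblast genes measured summed to between 2066 and 7274 TPM in WT mEFs, with all 6 at 1 TPM or more. The mEFs also held macrophage RNA (summed TPM of 6 markers from 88.3 to 497) and skeletal muscle RNA (5 markers, from 84.9 to 416.5 TPM), and the E9.5 and E13.5 embryos held embryonic globins. All 5 sympathetic neuroblast markers were present in Neuro2a input (from 637 to 657 TPM in sum). In bulk RNA, a smaller share of cells with a transcript and less of it per cell cannot be told apart.

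Chd2 RNA was highest in embryos. The WT E9.5 embryos had 25.8, 24.7 and 24.8 TPM of Chd2, a mean of 25.1 ± 0.598 (SD, n = 3). The WT E13.5 embryos had 26.5, 25.9 and 25.6 TPM, a mean of 26.0 ± 0.454 (SD, n = 3). The stages overlapped, and the coefficient of variation within each was at most 2.38%. WT brain was lower, with 8.05, 8.09 and 11.9 TPM (mean 9.35 ± 2.22, SD, n = 3). The highest brain value was the TruSeq library, the kit of the embryos, and it was still below every embryo. Of 14928 genes, 38.9% lay in the same way below the E9.5 embryos.

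WT mEFs held less Chd2 than any brain library in all 4 sets, as was so for 40.1% of 14416 genes, and less than any embryo, as was so for 36.3% of 14049 genes. They had 7.43, 7.76 and 7.80 TPM in the set of the Chaserr-/- Chd2m/m mutants and 6.78, 7.35 and 7.28 TPM in the set of the Chaserr+/- mEFs. The WT mEFs of the Chaserr-/- set had 5.40, 5.82 and 6.41 TPM, and those of the Chd2m/m set 4.82, 5.24 and 5.04 TPM. No 2 of these neighbouring sets overlapped, yet all 12 values lay between 4.82 and 7.80 TPM. Neuro2a input had 3.34 and 5.43 TPM and overlapped the lowest mEF set. From the highest to the lowest WT group the mean level of Chd2 differed 5.93-fold.

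Chaserr spanned a wider range than Chd2. The WT E13.5 embryos had 42.1, 64.6 and 57.1 TPM of Chaserr (mean 54.6 ± 11.5, SD, n = 3) and the E9.5 embryos 43.9, 40.2 and 48.4 TPM (mean 44.2 ± 4.12, SD, n = 3). These groups overlapped. WT brain had 30.02, 33.15 and 35.97 TPM (mean 33.1 ± 2.98, SD, n = 3), below all embryos, with the TruSeq library again the highest of the 3.

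In mEFs the level of Chaserr differed between the sets. The WT mEFs of the Chaserr+/- set had 20.7, 22.2 and 18.4 TPM, and those of the Chd2m/m set had 17.8, 19.0 and 18.6 TPM, which overlapped. The WT mEFs of the Chaserr-/- set had 13.8, 11.6 and 8.63 TPM. The WT mEFs of the Chaserr-/- Chd2m/m set had 93.7, 90.0 and 80.0 TPM, above every other library of the series. Markers of cell types also differed between these sets. The WT mEFs of the Chaserr-/- set, with the least Chaserr, had macrophage sums of 432 to 497 TPM and muscle sums of 318 to 416.5 TPM, against 88.3 to 112 TPM and 84.9 to 97.3 TPM in the Chaserr+/- set. Those of the Chaserr-/- Chd2m/m set, with the most Chaserr, lay between these, with 230 to 272 TPM and 102 to 140 TPM. The Chd2m/m set had 157 to 233 TPM and 94.1 to 143 TPM. Fibroblast sums were 2066 to 2351 TPM in the Chd2m/m set, 3731 to 4536 TPM in the Chaserr-/- Chd2m/m set and at least 5380 TPM in the others. The part of cell makeup in the level of Chaserr was not tested. Neuro2a input was lowest with 1.64 and 3.50 TPM. From highest to lowest group the mean differed 34.2-fold, 21.2-fold without the WT mEFs of the Chaserr-/- Chd2m/m set and 7.74-fold without Neuro2a.

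**Figure D1:**
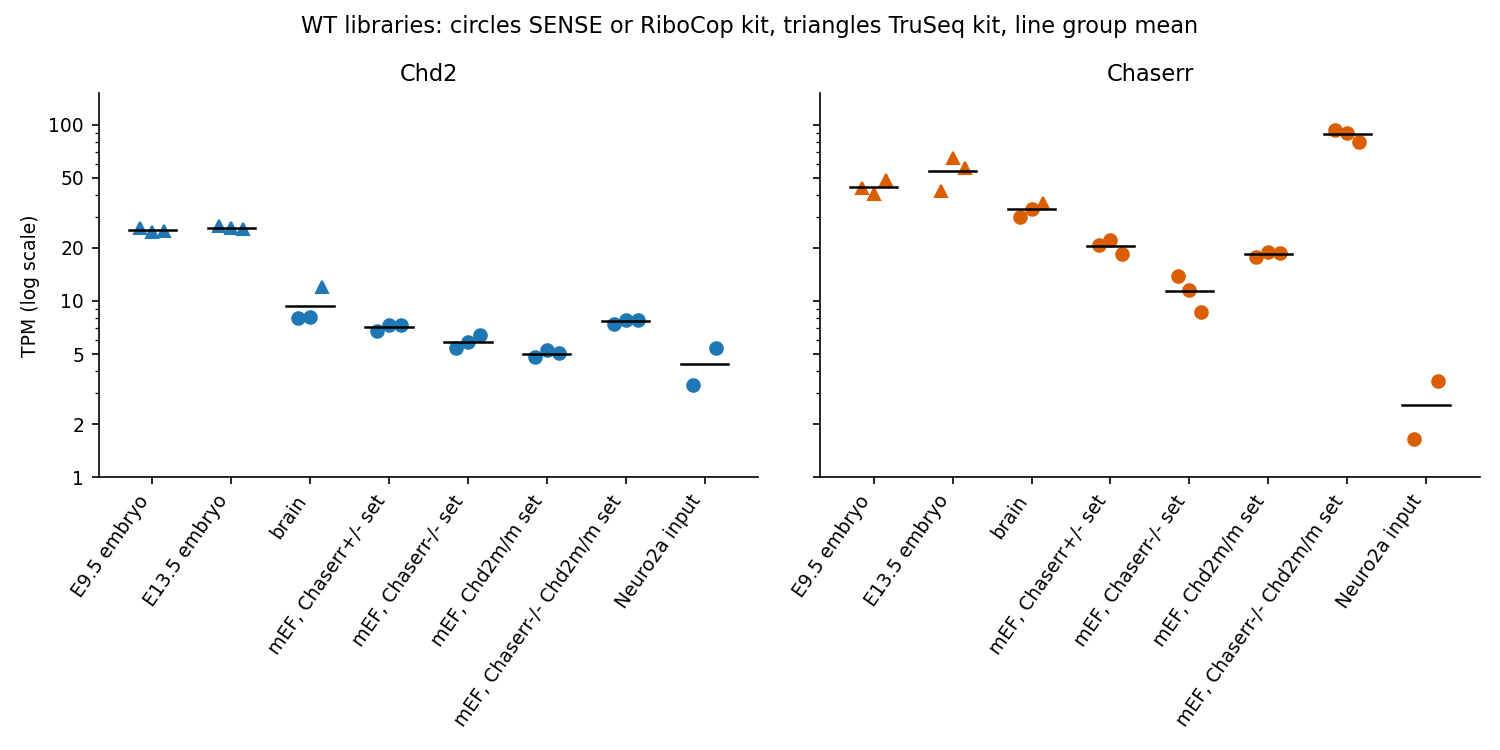
TPM (log axis) of Chd2 on the left and Chaserr on the right in every WT library and in Neuro2a input, with a point per library, triangles for the TruSeq kit and a line at each group mean. Chd2 steps down from about 25 TPM in embryos to between 4.82 and 7.80 TPM in mEFs, whereas Chaserr in 1 mEF set (79.97 to 93.67 TPM) lies above the embryos.

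A joint edgeR fit of the WT libraries and the Neuro2a input, scaled by TMM with an offset for effective length, tested these differences with Benjamini-Hochberg adjustment over 16945 genes. Tissues differ in most genes, so a call here is common. Chd2 was lower in brain than in E13.5 embryos, with a log2 difference of -1.36 (SE 0.114, adjusted p = 7.9e-10), as was Chaserr with -0.60 (SE 0.167, adjusted p = 0.00272). In that comparison 75% of genes were called, and 38.7% were called lower. The TPM of both genes did not overlap between these groups, which held for 42.4% of 15354 genes in the same direction. Chd2 was lower in mEFs than in E13.5 embryos by the same measure (-1.35, SE 0.0821, adjusted p = 4.15e-12), where 78.6% of genes were called and 47.5% were called lower. There Chaserr had a log2 difference of -0.46 (SE 0.128, adjusted p = 0.00285), and of -0.997 without the WT mEFs of the Chaserr-/- Chd2m/m set. The median gene also shifted by -0.31 in this comparison.

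Between E9.5 and E13.5 neither gene passed the test, although 62.4% of all genes did. The E13.5 level of Chaserr was 1.01 times the E9.5 level (95% interval 0.797 to 1.28) and that of Chd2 was 0.843 times (0.718 to 0.99, adjusted p = 0.0601 from edgeR). The sign for Chd2 turned on TPM (log2 difference 0.05 with limma, where the median gene moved by 0.22).

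Brain and mEFs were not separated by this fit, which called 82.3% of genes. The log2 difference of mEFs from brain was 0.01 (SE 0.0908, adjusted p = 0.968) for Chd2 and 0.15 (SE 0.137, adjusted p = 0.324) for Chaserr. Both turned negative on TPM with limma (-0.47 and -0.39, with a median gene of -0.43), and that of Chaserr also without the WT mEFs of the Chaserr-/- Chd2m/m set (-0.39, adjusted p = 0.021 from edgeR). Within the SENSE kit alone, brain had 8.05 and 8.09 TPM of Chd2, above the 12 WT mEFs. Neuro2a input had much less Chaserr than brain, with a log2 difference of -2.90 (SE 0.252, adjusted p = 1.5e-09 from edgeR), where 74.6% of genes were called and 39.6% were called lower. Both members had lower TPM in the input than in any brain library, like 56.1% of 14694 genes. The difference for Chd2 was small (-0.31, SE 0.131, adjusted p = 0.0384), with an adjusted p of 0.226 without the TruSeq brain library, 0.405 without Neuro2a input replicate 1, and between 0.0509 and 0.0554 without any of 6 libraries of embryos and mEFs. The Neuro2a libraries were made from ribosomal RNA-depleted RNA, and kit and cell type cannot be told apart there.

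The 12 WT mEF libraries share a nominal genotype and cell type, and the sets differed more in Chaserr than in Chd2. Across the 4 WT mEF sets the highest and lowest set means of Chaserr differed by 2.81 on the log2 scale (edgeR, adjusted p = 5.65e-10, with 72.4% of genes called). For Chd2 they differed by 0.30 (adjusted p = 0.102), which passed on TPM with limma (0.52, adjusted p = 0.00626) and in edgeR without the TruSeq brain library (adjusted p = 0.022). Without the WT mEFs of the Chaserr-/- Chd2m/m set, the range for Chaserr was 1.04 (adjusted p = 0.000603). A separate contrast of that set with the mean of the other 3 WT sets gave 4.69 times as much Chaserr (adjusted p = 5.84e-10), rank 259 from the top of 14437 genes, and 1.12 times as much Chd2 (adjusted p = 0.0608). Of those genes, 64.9% were called, and both members lay above all 9 other WT mEF libraries in TPM, as did 27.6% of 12975 genes.

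The fragments of that set were also shorter. Its 6 libraries had a mean fragment length of 84.1 to 85.0 bases, against 109.5 to 135.9 bases in the other mEFs. Chaserr is a short row and Chd2 a long one. In the same contrast, the 629 genes of 700 to 1000 bases had a median log2 difference of -0.14, and 2.38% of them had a difference as large as that of Chaserr or larger. Over all 14437 genes tested the median was 0.06, and 1.79% had a difference that large. The 616 genes over 8000 bases had a median of 0.31. The part of fragment length, litter and culture in the Chaserr level of this set was not tested.

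The ratio of Chaserr to Chd2 TPM differed between WT groups. In WT E9.5 embryos it was 1.70, 1.63 and 1.95, with a geometric mean of 1.75, and in WT E13.5 embryos the geometric mean was 2.07 (from 1.59 to 2.497). WT brain had a higher ratio, 3.59 (from 3.02 to 4.10), above every embryo. Among WT mEFs the geometric mean was 1.90 in the Chaserr-/- set (from 1.35 to 2.56), 2.86 in the Chaserr+/- set (from 2.53 to 3.05), 3.67 in the Chd2m/m set (from 3.63 to 3.70) and 11.4 in the Chaserr-/- Chd2m/m set (from 10.3 to 12.6). Neuro2a input was the one source with less Chaserr than Chd2 (0.491 and 0.645).

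The log2 ratio differed between WT mEF sets by more than the spread within them, with a range of 2.59 between set means (exact permutation test over 369600 arrangements of 12 libraries, p = 0.0001299, adjusted p = 0.0009091 over 7 tests of the ratio, where the smallest p possible was 6.494e-05). Between E9.5 and E13.5 the difference was 0.24, with overlapping groups (exact permutation test, two-sided, p = 0.4, adjusted p = 0.4).

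Over the 8 WT groups, the log2 levels of the genes had a Pearson correlation of 0.64 and a Spearman correlation of 0.833 as a description of 8 points that share libraries, kits and depth. Without the WT mEFs of the Chaserr-/- Chd2m/m set the Pearson correlation was 0.81, and without Neuro2a input it was 0.56. Over the 6 groups without both, the Pearson correlation was 0.904 and the Spearman correlation 0.943. Among 10296 genes with a mean of at least 1 TPM in each group, Chaserr ranked 3263 in likeness to Chd2, and Chd2 ranked 2494 in likeness to Chaserr. The pattern of Chd2 was most like that of Fam114a2 (r = 0.996), Ddx17 (an RNA helicase, 0.993), Gtf3c4 (a subunit of a factor for RNA polymerase III, 0.991), Nhej1 (a DNA repair factor, 0.99) and Ykt6 (a membrane fusion protein, 0.99). That of Chaserr was most like the patterns of Ube2d2a (a ubiquitin-conjugating enzyme, r = 0.991), Asb3 (0.99), Slc25a36 (a mitochondrial carrier, 0.985), Hook3 (0.983) and Syap1 (0.983). Fam114a2 had 50.4 and 60.1 TPM in E9.5 and E13.5 embryos, 21.4 TPM in brain, between 13.46 and 17.45 TPM in mEFs and 11.4 TPM in Neuro2a input, in the order of Chd2. Ube2d2a had 186 and 168 TPM in the embryos, 163 TPM in brain, 101 to 127 TPM in 3 mEF sets, 235 TPM in the WT mEFs of the Chaserr-/- Chd2m/m set and 58.2 TPM in Neuro2a input. Without that mEF set, 2 of the 5 genes for Chd2 and 0 of the 5 for Chaserr were still among the closest 5.

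Other genes of the same pathways were followed through lists of 9 further CHD remodellers, 10 genes of histone H3.3 and its chaperones (9 with a row by symbol) and 14 factors of nonsense-mediated decay, the pathway that degrades RNA with an early stop codon. From E13.5 embryos to brain, 1 CHD gene was called higher and 6 lower (edgeR, median log2 difference -0.72, against -0.06 over all genes). Chd5, the member typical of neurons, was the higher one, with a log2 difference of 2.98 (adjusted p = 5.39e-12), and Chd1, the closest relative of Chd2, had -1.94 (adjusted p = 2.98e-10). Of the H3.3 list 8 of 9 were called lower, with H3f3b (which encodes the H3.3 protein) at -2.18 (adjusted p = 6.38e-11), and of the decay factors 8 were called lower and 1 higher. Of all genes, 38.7% were called lower in this contrast. Between E9.5 and E13.5, where Chd2 did not pass, 2 CHD genes were called higher and 5 lower, including Chd5 at 4.06 (adjusted p = 4.35e-12) and Chd1 at -1.95 (adjusted p = 6.02e-10). In the same contrast 6 of 9 genes of the H3.3 list and 11 of 14 decay factors were called lower, with medians of -0.61 and -0.64 against 0.05 over all genes. Of all 16945 genes, 4998 were called lower there. In mEFs against E13.5 embryos, 7 of 9 CHD genes were called lower (median -0.89, against -0.31 over all genes), among them Chd7, a remodeller of neural crest and other progenitors, at -2.94 (adjusted p = 3.23e-12). Of the H3.3 list 7 of 9 were called lower there, and of the decay factors 7 lower and 2 higher, beside 47.5% of all genes called lower.

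Against brain, mEFs had 3 CHD genes higher and 4 lower, 5 H3.3 genes higher and 2 lower and 4 decay factors in each direction (edgeR), or 7 of 9, 7 of 9 and 8 of 14 genes, where 82.3% of all genes were called. Chd1 was 2.07 higher on the log2 scale in mEFs (adjusted p = 5.9e-12), in the contrast in which Chd2 differed by 0.01. In Neuro2a input against brain, 5 CHD genes, 6 H3.3 genes and 7 decay factors were called higher and 2, 1 and 5 lower, beside 74.6% of all genes called, with Chd1 at 1.12 (adjusted p = 4.53e-06). Across the 4 WT mEF sets, 5 of 9 CHD genes, 8 of 9 H3.3 genes and 10 of 14 decay factors were called, beside 72.4% of all genes, with ranges between set means of up to 1.85 (Atrx, a remodeller that places H3.3 in heterochromatin), less than that of Chaserr.

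In Chaserr+/- animals 1 allele of Chaserr is intact, and in each tissue Chaserr was lower and Chd2 higher on average than in WT. Chaserr+/- E9.5 embryos had 21.7, 28.7 and 21.4 TPM of Chaserr against at least 40.2 TPM in WT, a mean of 54.1% of the WT mean. Chd2 in the same embryos was at 37.9, 42.9 and 36.5 TPM against at most 25.8 TPM, a mean of 1.56 times the WT mean. Neither gene overlapped between the genotypes, as was the case for 6.17% of 13125 genes that were lower and 2.7% that were higher. In the edgeR test the log2 fold change of Chaserr was -0.86 (SE 0.13, adjusted p = 1) and that of Chd2 was 0.66 (SE 0.0618, adjusted p = 0.104). This test called 0 of 14500 genes (0%), and 453 had an unadjusted p under 0.05. DESeq2 called 5 genes, both members among them (adjusted p = 2.28e-17 for Chd2 and 4.37e-05 for Chaserr).

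Chaserr+/- E13.5 embryos had 37.1, 46.3 and 46.1 TPM of Chd2, above the WT embryos (at most 26.5 TPM), and 1.25% of 14897 genes lay above all WT libraries in this way. Chd2 rose with a log2 fold change of 0.78 (SE 0.0443, adjusted p = 0.0029 from edgeR), 1 of 5 genes called (0.0314% of 15946, with 0.0125% called higher). Without WT replicate 3 its adjusted p was 0.0536. Chaserr had 31.6, 29.9 and 42.5 TPM against 42.1, 64.6 and 57.1 TPM, so that the highest Chaserr+/- embryo lay just above the lowest WT embryo. Its log2 fold change was -0.61 (SE 0.187, adjusted p = 0.732).

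Chaserr+/- brains had 13.6, 15.2 and 27.7 TPM of Chd2 against 8.05, 8.09 and 11.9 TPM in WT, and 15.1, 23.5 and 14.1 TPM of Chaserr against 30.02, 33.15 and 35.97 TPM. Neither overlapped, as for 4.43% of 14734 genes that were higher and 4.05% that were lower. The last value of each group was the TruSeq library. Within TruSeq the fold for Chd2 was thus 27.7 over 11.9 TPM in single libraries. The log2 fold change was 0.98 (SE 0.274) for Chd2 and -0.90 (SE 0.29) for Chaserr, both with an adjusted p of 1 from edgeR, which called 0% of 14911 genes (368 at an unadjusted p under 0.05, and 1 gene by DESeq2). Replicate 3 of both genotypes, the TruSeq libraries, deviated alike (r = 0.747). The SENSE libraries did not pair by number, as Chaserr+/- replicate 1 was closer to WT replicate 2 (r = 0.589) than to WT replicate 1 (0.437). With the replicate block the edgeR adjusted p was 0.315 for both genes, while 0 genes were called and 1954 had an unadjusted p under 0.05. With the 2 SENSE libraries of each genotype alone, the value for Chd2 was 0.83 (adjusted p = 0.211).

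Chaserr+/- mEFs had 10.8, 9.97 and 11.3 TPM of Chd2 against 6.78, 7.35 and 7.28 TPM in WT. Their Chaserr was at 10.4, 15.8 and 11.8 TPM against 20.7, 22.2 and 18.4 TPM. Neither gene overlapped, which was so for 8.62% of 12582 genes that were higher and 4.83% that were lower. Chd2 rose with a log2 fold change of 0.55 (SE 0.0878, adjusted p = 0.0369 from edgeR, with 0.173% of 13282 genes called and 0.128% called higher). This adjusted p was between 0.0555 and 0.234 in each fit without a library other than Chaserr+/- replicate 1. Chaserr had -0.70 (SE 0.172, adjusted p = 0.192).

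The log2 fold changes of Chd2 in the 4 sources of Chaserr+/- RNA, from 0.55 to 0.98, did not pass a test of their difference. A joint edgeR test of a difference between the tissues gave an adjusted p of 1 for both genes (0.0466% of 17153 genes were called). In TPM, Chd2 exceeded the WT mean by 14.0 at E9.5, 17.2 at E13.5, 9.5 in brain and 3.55 in mEFs, and Chaserr was lower by 20.2, 19.9, 15.5 and 7.78. The ratio of Chaserr to Chd2 in Chaserr+/- had a geometric mean of 0.607 at E9.5, 0.797 at E13.5, 0.955 in brain and 1.17 in mEFs. In the embryos it was below 1 in every Chaserr+/- library and above 1 in every WT library. The log2 difference from WT was -1.53, -1.38, -1.91 and -1.29 in the order above, with no overlap in any tissue (two-sided exact permutation test, adjusted p = 0.117 and p = 0.1 in each, the lowest that 3 against 3 can reach).

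**Figure D2:**
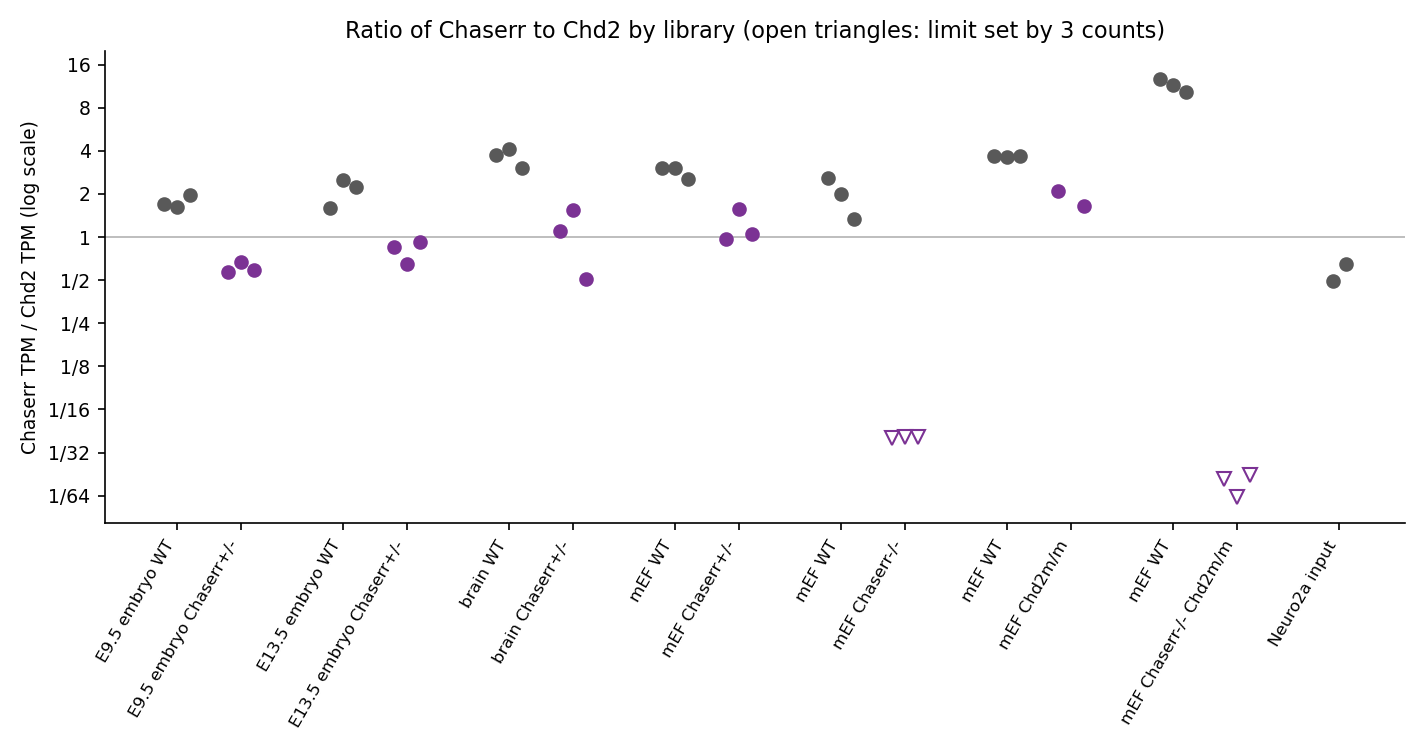
Ratio of Chaserr TPM to Chd2 TPM (log axis) in every library, grey for WT and Neuro2a input and purple for mutants, each mutant group to the right of its own WT libraries. Open triangles are the limits that 3 counts of Chaserr allow where a library had 0 or 1. WT ratios run from 1.35 to 12.6 and the Chaserr+/- libraries fall to between 0.509 and 1.58.

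Loss of both Chaserr alleles in mEFs left no Chaserr count. The Chaserr-/- libraries had 0, 0 and 0 counts, against 162 counts summed over the 3 WT libraries of the same set, so Chaserr fell to a level at least 54.3-fold lower (3 counts over the group). Its adjusted p was 0.0064. Chd2 in these libraries was at 18.2, 14.9 and 17.3 TPM against 5.40, 5.82 and 6.41 TPM. Both genes stood apart from WT, as did 26.7% of 13184 genes in the higher direction and 16.4% in the lower. Chd2 rose with a log2 fold change of 1.45 (SE 0.136, adjusted p = 0.00568 from edgeR, with 0.118% of 13580 genes called, 0.0221% higher and 0.0957% lower), and without WT replicate 5 the adjusted p of both genes was 0.0864. DESeq2 called 2582 genes here where edgeR called 16.

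The rise of Chd2 was larger after loss of both alleles than after loss of 1. In mEFs the mean TPM of Chd2 was 1.497 times its own WT mean in Chaserr+/- (from 1.40 to 1.59) and 2.86 times in Chaserr-/- (from 2.54 to 3.09). The Chaserr+/- value thus lay below the midpoint of 1.93 and amounted to 26.7% of the full rise, across sets from different pregnancies. The difference of the fold changes was tested in a joint edgeR fit and was 0.90 on the log2 scale (SE 0.131, adjusted p = 0.00181, with 13.3% of 15124 genes called and 7.93% called higher).

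The Chd2m/m mEFs, which carry the frameshift in Chd2 and an intact Chaserr, also had more Chd2 RNA. They had 7.76 and 8.19 TPM against 4.82, 5.24 and 5.04 TPM in WT, outside the WT range like 8.85% of 12337 genes that were higher. Chd2 rose with a log2 fold change of 0.66 (SE 0.0805, adjusted p = 0.045 from edgeR), 1 of 2 genes called (0.0145% of 13777, with 0.00726% called higher), and without any 1 of the 5 libraries the adjusted p was between 0.0859 and 0.277. Chaserr was at 16.3 and 13.47 TPM against 17.8, 19.0 and 18.6 TPM, below WT like 9.87% of genes, with a log2 fold change of -0.29 that did not pass (SE 0.109, adjusted p = 0.937). The log2 ratio of Chaserr to Chd2 was 0.98 lower than in WT (two-sided exact permutation test, adjusted p = 0.117 and p = 0.1, the lowest that 2 against 3 can reach).

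Among mEFs, Chd2 RNA was highest with both mutations. The Chaserr-/- Chd2m/m mEFs had 27.0, 26.9 and 31.0 TPM of Chd2 against 7.43, 7.76 and 7.80 TPM, above WT like 6.57% of 13192 genes, and 7.1% lay below WT like Chaserr. The log2 fold change was 1.88 (SE 0.096, adjusted p = 8.78e-06 from edgeR, with 0.0924% of 14076 genes called, 0.0497% higher and 0.0426% lower), the third largest rise among those genes. Chaserr had 0, 1 and 1 counts against 1751 in the WT libraries, or 0.132% of the WT level after scaling by library size (95% exact interval 0.016% to 0.478%, counting error only), and its adjusted p was 1.61e-07. The fold change of Chd2 exceeded that of Chd2m/m by 1.22 (SE 0.138, adjusted p = 0.000103, with 0.0132% of 15124 genes called and 0.00661% called higher) and that of Chaserr-/- by 0.42 (SE 0.13, adjusted p = 0.0344, with 15.6% called and 5.38% called higher). The latter adjusted p was between 0.054 and 0.0916 in 6 of 23 fits that left out a library and 0.0562 without the filter on low counts, and these libraries are those with the short fragments.

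**Figure D3:**
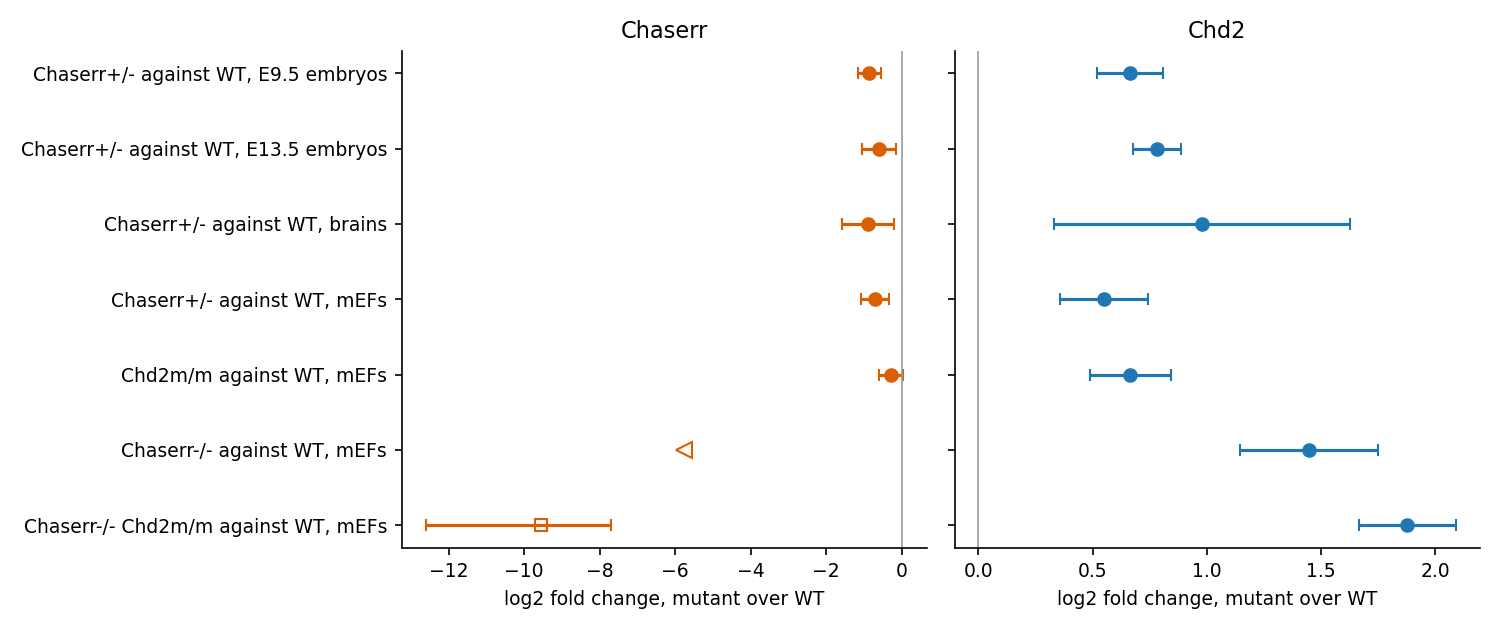
Log2 fold change of Chaserr (left) and Chd2 (right), mutant over WT, from edgeR with 95% intervals (filled points). For Chaserr the open triangle is the bound from 3 counts and the open square the ratio of 2 to 1751 counts with its counting interval. Chd2 lies above 0 in all 7 comparisons, from 0.55 in Chaserr+/- mEFs to 1.88 in Chaserr-/- Chd2m/m mEFs.

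Across WT mEFs the genes did not mirror each other as they did across genotypes. The WT set with the most Chaserr (80.0 to 93.7 TPM) also had the most Chd2 (7.43 to 7.80 TPM), and its libraries had the short fragments. Against the other WT mEF sets its log2 difference in Chd2 was 0.16 (adjusted p = 0.0608 from edgeR), beside a median of 0.31 for genes over 8000 bases. The set with the least Chaserr (8.63 to 13.8 TPM) had 5.40 to 6.41 TPM of Chd2, between the other sets, although it held no more Chaserr than the Chaserr+/- mEFs (10.4 to 15.8 TPM), which had 9.97 to 11.3 TPM of Chd2. The sets come from different pregnancies, and the WT set with the least Chaserr was not tested against the Chaserr+/- mEFs.

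**Figure D4:**
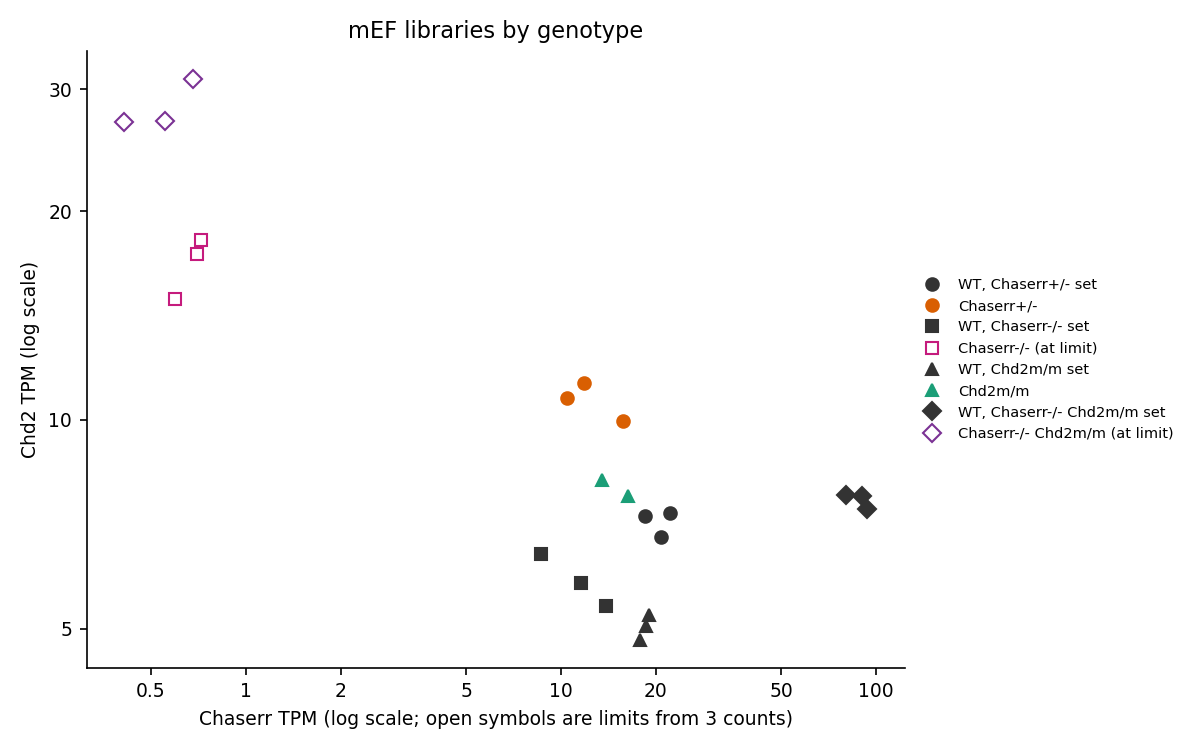
Chd2 TPM against Chaserr TPM (both log axes) in each mEF library, with a symbol shape per set, WT in dark grey and mutants in colour. Open symbols mark libraries with 0 or 1 Chaserr count, drawn at the TPM of 3 counts. Mutants lie above their own WT set in Chd2, while the 4 WT sets spread along the Chaserr axis from 8.63 to 93.7 TPM at 4.82 to 7.80 TPM of Chd2.

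Of the other CHD remodellers, the H3.3 list and the decay factors, no gene was called by edgeR in any of the 7 comparisons of a mutant with WT. Between 0% and 0.173% of all genes were called in these comparisons, so lists of this size would hold few calls or none. In Chaserr-/- mEFs edgeR called 16 of 13580 genes and DESeq2 called 2582. In Chaserr-/- mEFs the lowest p of each list belonged to Chd1 (log2 fold change 0.77, adjusted p = 0.0541), Atrx (0.94, adjusted p = 0.0557) and Upf2, a core decay factor (0.60, adjusted p = 0.0741), in a set with 4601 genes at an unadjusted p under 0.05. In Chaserr+/- embryos the median of every list was within 0.05 of 0 on the log2 scale, as was the median of all genes, and in Chaserr+/- brain the CHD list had a median of 0.20 against 0.01. The difference between the effects of Chaserr-/- and Chaserr+/- was called for Chd1 (0.75, adjusted p = 0.0255) and, among H3.3 genes, for Dek (0.88, adjusted p = 0.0402), Cabin1 (-0.65, adjusted p = 0.0355) and Asf1a (0.62, adjusted p = 0.0374), and among decay factors for Rbm8a (0.75, adjusted p = 0.031), beside 13.3% of all genes.

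ATAC-seq, which marks accessible DNA, was available for WT mEFs and for Chaserr-/- and Chaserr-/- Chd2m/m mEFs, with peaks called in each library. Every one of the 6 WT libraries had a peak within 300 bases of the Chaserr start, with a fold enrichment over local background of 16.8, 14.2 and 12.7 in the Chaserr-/- set and 14.7, 12.6 and 11.1 in the Chaserr-/- Chd2m/m set. No library of either mutant had one (0 of 3 in each), and the printed promoter is deleted there. Within 1000 bases, 1 Chaserr-/- library had a peak with a fold enrichment of 4.65 and 1 Chaserr-/- Chd2m/m library one of 7.85, both upstream of the deletion. The Chd2 promoter carried a weaker peak. It had a fold enrichment of 3.96, 3.91 and 4.83 in Chaserr-/- and of 4.58, 3.68 and 3.63 in WT. These overlapped, with a mean difference of 0.27 (exact permutation test, two-sided, p = 0.5, where 0.1 is the smallest possible). In the other set, 2 of 3 mutants (6.16 and 5.28) and 2 of 3 WT libraries (3.67 and 4.28) had a Chd2 peak. The libraries without it had 28349 and 18661 peaks in all, against 58324 to 93597 in the others.

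**Figure D5:**
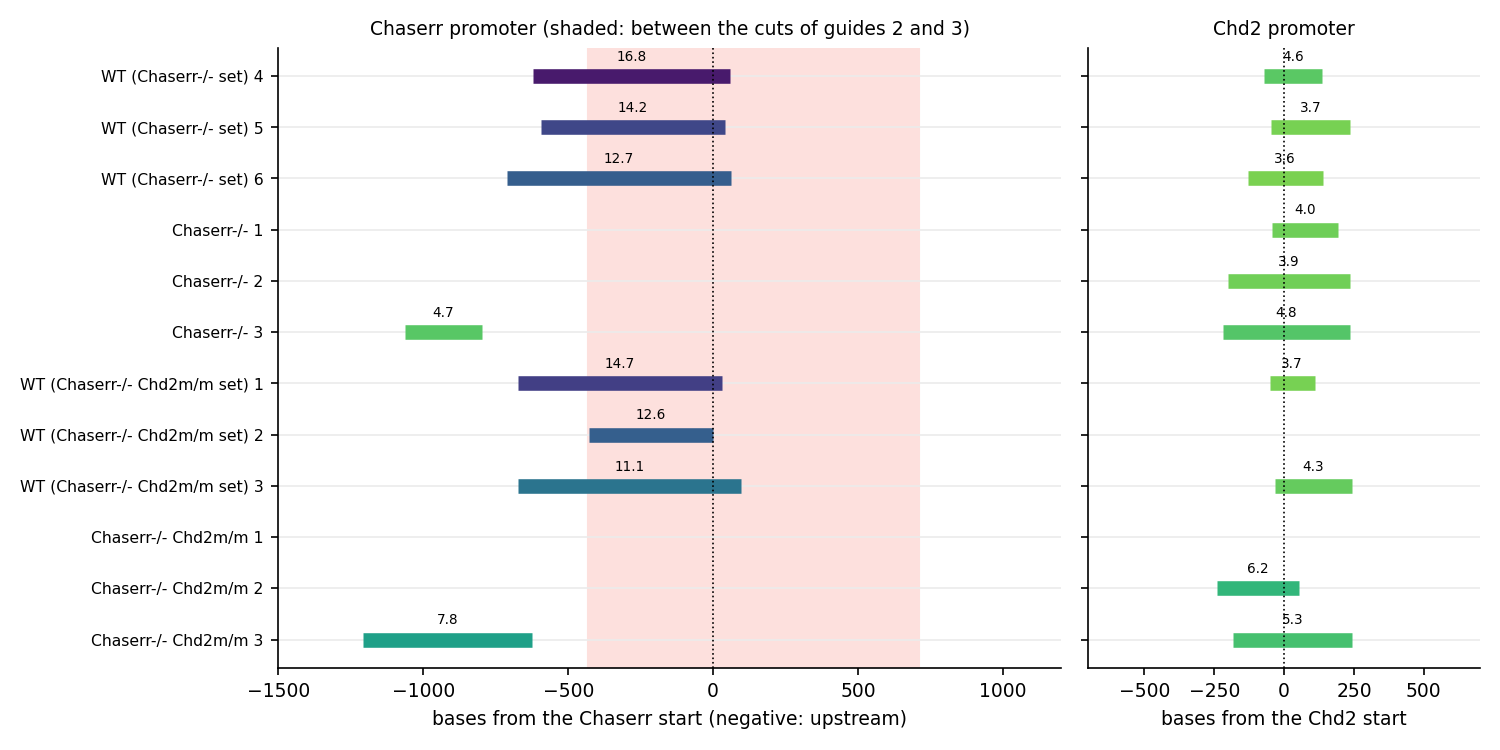
ATAC-seq peaks of each mEF library by distance from the Chaserr start (left) and from the Chd2 start (right), in bases along the direction of transcription, with the fold enrichment printed above each bar. Shading marks the stretch between the cuts of guides 2 and 3 (1142 bases). All 6 WT libraries have a peak over the Chaserr start and no mutant library does, and the Chd2 peak is present in 10 of 12 libraries.

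In Neuro2a cells, RNA immunoprecipitated with the CHD2 antibody held more Chd2 RNA than either control. Chd2 was at 21.0 and 20.6 TPM in the CHD2 libraries, 3.99 and 4.98 TPM with IgG and 3.34 and 5.43 TPM in input. The log2 difference was 2.02 against IgG (SE 0.288, adjusted p = 0.00721 from edgeR, with 11.5% of 14906 genes called and 11.1% called higher) and 1.75 against input (SE 0.285, adjusted p = 0.01, with 15.1% called and 8.91% called higher). Leaving out either CHD2 library took the first adjusted p to 0.095 or 0.102, and the second to between 0.0936 and 0.133 without either of these or input replicate 1. The counts here are of RefSeq transcripts, which lack introns. The study counted reads over entire gene bodies, found many in introns, and placed Chaserr among the most enriched RNAs. In the transcript counts, Chaserr had 18.5 and 8.45 TPM in the CHD2 libraries, 2.37 and 0 TPM with IgG and 1.64 and 3.50 TPM in input, from 43, 22, 18, 0, 11 and 23 counts. The differences of 3.17 (SE 1.23, adjusted p = 0.114) and 1.92 (SE 1.16, adjusted p = 0.263) did not pass in edgeR. Without the IgG library that had 0 counts the former was 2.05 (adjusted p = 0.0911), and without the other IgG library its adjusted p was 0.00233.

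Of the lists, 1 CHD gene (Chd1, log2 difference 1.87 against IgG, adjusted p = 0.0398), 1 of the H3.3 list (Ubn1, a subunit of an H3.3 chaperone, 1.29, adjusted p = 0.028) and 2 decay factors (Smg6, an endonuclease, 3.02, adjusted p = 0.00665, and Smg1, a kinase, 2.44, adjusted p = 0.00868) were called higher with the CHD2 antibody, which is 4 of 32 genes, near the 11.1% of all genes called higher. Against input, Chd6 (1.61, adjusted p = 0.049), Smg1 (2.62) and Smg6 (2.35) were called higher. The genes called lower were H3f3b (-1.92, adjusted p = 0.011) and H3f3a (-1.15, adjusted p = 0.0394), which both encode H3.3, and the decay factors Eif4a3 (-1.81, adjusted p = 0.0111) and Smg9 (-1.05, adjusted p = 0.0468). In both directions these were 1 of 9 CHD genes, 2 of 9 of the H3.3 list and 4 of 14 decay factors. Of all 14906 genes, 15.1% were called against input and 8.91% were called higher.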

How the data were processed

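RNA-seq libraries (47) and ATAC-seq libraries (12) were grouped by their labels. The authors aligned RNA-seq reads with RSEM and Bowtie2 to RefSeq transcripts (mm10) with an edited last exon of Chaserr, and deposited TPM, FPKM and an expected count for each gene row. They aligned ATAC-seq reads to mm9 and deposited MACS2 peaks per library with a score, a fold enrichment ratio and −log10 p and q. TPM and FPKM are scaled within a library, so a large change in abundant genes shifts them.

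Expected counts were rounded and tested with edgeR 4.0.16 (R 4.3.3; filterByExpr, TMM, quasi-likelihood, two-sided, Benjamini-Hochberg over all genes tested, threshold 0.05). Each mutant group was fitted with its own WT libraries. Differences between effects used joint fits with a mean per group, and WT contrasts added an offset for effective length. Prior to use, the scripts were tested on simulated data. DESeq2 1.42.0 and limma 3.58.1 on log2(TPM + 1) were alternatives, with no filter on low counts, a replicate block and the omission of each library. Limits use 3 counts. Intervals are 95%: those of edgeR cover the spread between libraries, and limits and intervals from counts alone cover counting error only. The labels do not state whether all libraries came from separate animals, so p-values measure the spread between libraries. The rule for likeness named the 5 genes with the highest Pearson correlation with each member over WT group means. Same-numbered brain libraries correlated (r of 0.437, 0.529 and 0.747 for deviations from group means, with replicate 3 of both genotypes made with TruSeq). The SENSE brain libraries also correlated across numbers (0.589 for Chaserr+/- replicate 1 with WT replicate 2, and 0.337 for Chaserr+/- replicate 2 with WT replicate 1). Guides and promoters were matched to NCBIM37. The genes and lists were chosen with earlier results of these data known.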

Additional observations from a re-analysis of the deposited data

How the results depend on the processing

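Of the results for Chd2, Chaserr and their ratio, those that changed are given as log2 differences. In Chaserr+/- E9.5 embryos DESeq2 gave Chd2 0.66 (adjusted p = 2.28e-17) and Chaserr -0.86 (4.37e-05), and edgeR without the filter gave Chd2 0.66 (0.0357), past the threshold. Without the filter, Chd2 was 0.41 (0.0562) for Chaserr-/- Chd2m/m minus Chaserr-/- and -0.31 (0.0539) for Neuro2a input minus brain (-0.30 and 0.0579 without the WT mEFs of the Chaserr-/- Chd2m/m set). Limma on TPM gave Chd2 0.048 for E13.5 minus E9.5, -0.47 for mEFs minus brain and 0.52 (0.00626) across WT mEF sets, and Chaserr -0.39 for mEFs minus brain. For mEFs minus brain, Chd2 was -0.0066 with no length offset and -0.012 without the WT mEFs of the Chaserr-/- Chd2m/m set, where Chaserr was -0.39. Correlation of the genes without that set was 0.81. Within 1000 bases, 1 library of each ATAC mutant had a peak. The cause was not tested.

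The replicate block gave Chd2 in Chaserr+/- E13.5 embryos 0.78 (adjusted p = 0.129). Same-numbered brain libraries shared a kit. Outside the brain the labels state no link between same-numbered samples beyond the number (r from -0.286 to 0.354). For the CHD2 antibody libraries r was 0.174 with IgG and 0.159 with input. Whether same-numbered libraries there came from the same cells is not stated. The block changed no other call of Chd2 or Chaserr. It moved the genes called to 74 from 23 in Chaserr+/- mEFs, 75 from 13 in Chaserr-/- Chd2m/m mEFs, 1 from 5 in Chaserr+/- E13.5 embryos, 3757 from 1707 for RIP minus IgG and 4201 from 2246 for RIP minus input. For Chd2m/m it also left out WT replicate 3, which has no partner, and called 88 genes, against 3 without that library and no block. No shared numbers existed for Chaserr-/-.

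DESeq2 called 21 genes against 5 in Chaserr+/- E13.5 embryos, 99 against 23 in Chaserr+/- mEFs, 8 against 2 in Chd2m/m, 222 against 13 in Chaserr-/- Chd2m/m and 2582 against 16 in Chaserr-/- mEFs, 3597 against 1707 for RIP minus IgG and 3499 against 2246 for RIP minus input. It called 145 against 8 for the difference between tissues and 22 against 2 for Chaserr-/- Chd2m/m minus Chd2m/m. Without the filter, edgeR called 1 in Chaserr+/- E9.5 embryos, 68 in Chaserr+/-, 1407 in Chaserr-/-, 6 in Chd2m/m and 103 in Chaserr-/- Chd2m/m mEFs, and 2563 for RIP minus IgG.

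Leaving out each library gave Chd2 0.60 to 0.71 in Chaserr+/- E9.5 embryos, 0.76 to 0.82 in E13.5, 0.67 to 1.14 in brain and 0.51 to 0.60 in mEFs, 1.40 to 1.53 in Chaserr-/-, 0.61 to 0.73 in Chd2m/m and 1.82 to 1.92 in Chaserr-/- Chd2m/m. For E13.5 minus E9.5 it gave Chd2 -0.27 to -0.23 and Chaserr -0.12 to 0.17 (negative without E9.5 replicate 2 or E13.5 replicate 2 or 3), where Chd2 was called in 4 fits without a brain or Neuro2a library (-0.24 and an adjusted p of 0.0127 without the TruSeq brain library), and for mEFs minus brain Chd2 -0.071 to 0.019 (0.16 without the TruSeq brain library, and negative in 5 of 23 fits). The bound for Chaserr in Chaserr-/- mEFs, from 3 counts where the mutant had 0, ranged from -5.92 to -5.10. Chaserr ranged from -0.61 to -0.32 for mEFs minus E13.5. Chd2 ranged from 0.34 to 0.48 for Chaserr-/- Chd2m/m minus Chaserr-/-, -0.51 to -0.14 for Neuro2a input minus brain (-0.15 without the TruSeq brain library), 0.24 to 0.37 across WT mEF sets (0.30 and an adjusted p of 0.022 without the TruSeq brain library), 1.81 to 1.98 for RIP minus IgG and 1.27 to 1.74 for RIP minus input. Chaserr ranged from 2.05 to 8.61 for RIP minus IgG.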
